A study of Mus musculus with 2 samples.

Results

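The Mir297, Mir466, Mir467 and Mir669 genes are mouse microRNA families whose hairpins hold simple repeats of U with G or of A with C. Most of their copies lie in an intron of the gene Sfmbt2. The members were chosen by symbol alone. They are all genes of the count tables named Mir297, Mir466, Mir467 or Mir669, with or without a letter or hyphen after the number. This gave 69 of the 1973 microRNA genes, made up of 6 Mir297, 25 Mir466, 17 Mir467 and 21 Mir669 genes. Of the 69 members, 59 lay inside Sfmbt2 on its strand and 10 lay on other chromosomes. A further 12 annotated genes of these names, such as Mir466e and Mir669a-4, were not matched to a row by ID and were not analysed here.

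The data are small RNA libraries from whole liver of B6NCrl mouse embryos at day 14.5, untreated and of mixed sex, with reads counted at microRNA genes. There was 1 group of 2 libraries, replicate 1 and replicate 2, so there is no condition to compare. Each is described as coming from 1 pup, on 2 collection days, yet both carry 1 donor ID and a pooled sex, so how far they are separate animals is uncertain, and the spread between them may be partly technical. Same-strand counts in microRNA genes totalled 2353946 in replicate 1 and 3132763 in replicate 2, and levels are given as CPM, the counts scaled to these totals. A value after ± is the SD of the 2 livers (n = 2). A count of 0 allows a level of up to 3 counts, which here means 1.27 CPM (replicate 1) or 0.958 CPM (replicate 2). Intervals and limits cover counting error only.

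A microRNA is cut from a hairpin in a longer transcript, and the short mature strand then guides repression of messenger RNAs that pair with its seed, bases 2 to 8. Sfmbt2 encodes a Polycomb group protein and is imprinted, being read mainly from the paternal copy in early embryos and the placenta. Its microRNA cluster is found in rodents, where the intron expanded by repeated duplication, and it is known for its part in growth of the placenta. In fetal liver, immature liver cells are mixed with a large population of blood-forming cells, and in bulk RNA fewer cells of a type cannot be told apart from less RNA per cell. The liver markers Mir122, Mir192, Mir194-1 and Mir194-2 were all detected, with a summed level of 103929 and 117345 CPM in replicates 1 and 2. Of the other lists, the red cell markers Mir451a and Mir144 were detected and summed to 49613 and 39515 CPM. White cell markers summed to 11928 and 11289 CPM (3 of 3 detected), and the vessel marker Mir126a had 61517 and 57654 CPM. The red cell gene Mir486 was detected but is not in the red cell sum, since the list named it Mir486a and Mir486b. Its ratio of replicate 2 to replicate 1 was 1.27, against 0.795 for Mir451a and 0.800 for Mir144. The neuron list differed between the livers, at 258.3 against 23.3 CPM. Mir137 alone of its 6 measured genes was detected, with 570 and 70 counts, and the difference lay mainly in this gene. Mir124a-2, Mir124a-3 and Mir9-2 were at 0. The placenta and stem cell list (Mir290a, Mir291a, Mir292, Mir293, Mir294 and Mir295) summed to 98.6 and 130.2 CPM, with 4 of 6 at 10 counts or more in each library and none at 0. The part of these differences in the levels of the Sfmbt2 families was not tested.

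The sequences below are examples of these families from loci outside Sfmbt2, and they do not show the copies inside it. The RefSeq table for build GRCm38.p6 held entries for 9 of the 69 members, 8 of them with a mature strand, and all 9 are among the loci outside Sfmbt2. Capitals mark the seed, and sequences run 5′ to 3′.

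mmu-miR-466i-3p: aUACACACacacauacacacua
mmu-miR-466j: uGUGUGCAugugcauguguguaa
mmu-miR-466k: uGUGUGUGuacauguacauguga
mmu-miR-466q: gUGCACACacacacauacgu
mmu-miR-467f: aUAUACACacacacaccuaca
mmu-miR-467g: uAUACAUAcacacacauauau
mmu-miR-467h: aUAAGUGUgugcauguauaugu
mmu-miR-669n: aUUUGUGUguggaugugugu

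The 8 mature strands had 8 different seeds, so no 2 of them shared one. Seeds of the members inside Sfmbt2 were not available here. The fourth family is shown by the hairpin of Mir297-1 on chromosome 7 from 10958437 to 10958512, minus strand. Alternating U and G of at least 3 units is in capitals. Such runs, of U with G or of A with C, made up 7.89% of this hairpin. The median over the 69 members was 27.7%.

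Mir297-1: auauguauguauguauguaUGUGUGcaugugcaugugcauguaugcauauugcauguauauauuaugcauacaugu

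Reads that could be placed on the cluster made up a small share of the microRNA counts. The 69 members together had 7582 counts in replicate 1 and 10816 in replicate 2, which is 3221 and 3453 CPM and a mean of 3337 ± 163.7 CPM. Of all microRNA counts, the members made up 0.322% in replicate 1, with a 95% Clopper-Pearson interval of 0.315 to 0.329. In replicate 2 they made up 0.345%, with an interval of 0.339 to 0.352. Every one of these counts came from inside Sfmbt2. The 10 members outside it had 0 counts in both libraries. At 10 or more counts in each library, called detected here, stood 9 of the 69 members (13.0%). The same was true of 323 of the 1904 other microRNA genes (17.0%). At least 1 count in either library was found for 20 members (29.0%) and for 680 of the other genes (35.7%), and the median level was 0 CPM in both sets.

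By family, the Mir467 genes held most of the signal. Their sum was 2614 CPM in the first library and 2795 CPM in the second, or 81.2% and 81.0% of the members' counts, with 3 of 17 genes detected. The Mir669 genes followed with 570.5 and 629.8 CPM, or 17.7% and 18.2%, and 5 of 21 genes were detected. The Mir466 family is the largest by number of genes, yet it had 32.7 and 26.5 CPM with 1 of 25 genes detected. The Mir297 family had 8 counts in replicate 1 and 4 in replicate 2, with 0 of 6 genes detected. The order of the families was therefore the same in both livers, and none of them overlapped another in level as counted. Reads with several mapping places are outside these counts, and their part in the order of the families was not tested.

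Mir467d was the highest member, with 1013 and 1076 CPM in replicates 1 and 2, and it ranked 91 of all 1973 genes by its mean of 1044 ± 44.2 CPM. It lies on chromosome 2 from 10507630 to 10507714. Mir467c, at 10473931 to 10474027, had 870.0 and 905.3 CPM and ranked 100. Mir467e, at 10505721 to 10505807, had 730.3 and 813.3 CPM and ranked 107. These 3 genes took 81.1% of the members' counts in replicate 1 and 80.9% in replicate 2, and the ranges of the 2 livers did not overlap between any of them. Without Mir467d the sum of all members falls from 3337 to 2292 CPM.

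The Mir669 genes formed a second tier. Mir669l, at 10468971 to 10469068, had 265.9 and 288.6 CPM in replicates 1 and 2. Mir669o, at 10514300 to 10514395, had 227.7 and 256.0 CPM. Mir669l and Mir669o were close to each other but stood in the same order in both livers. With these, the 5 highest members held 96.5% and 96.7% of the members' counts. Mir669c, at 10509296 to 10509404, had 56.1 and 65.1 CPM, several times below Mir669o. Mir669e, at 10467495 to 10467613, had 15.7 and 16.3 CPM. Mir669h, at 10518155 to 10518279, was the lowest detected member with 10 and 12 counts, or 4.25 and 3.83 CPM.

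The only detected Mir466 gene was Mir466n, at 10513741 to 10513834, with 29.7 CPM in the first library and 23.6 CPM in the second. The highest Mir297 gene was Mir297a-2, at 10472254 to 10472343, which had 7 and 4 counts and so stayed below the minimum of 10. Just below it came Mir466b-3 with 3 and 5 counts. The other members under the minimum had at most 3 counts in a library, and all 60 members below it together held 19 counts in replicate 1 and 15 in replicate 2. The cluster as counted is thus the product of 9 genes, with 99.7% and 99.9% of its counts.

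**Figure D1:**
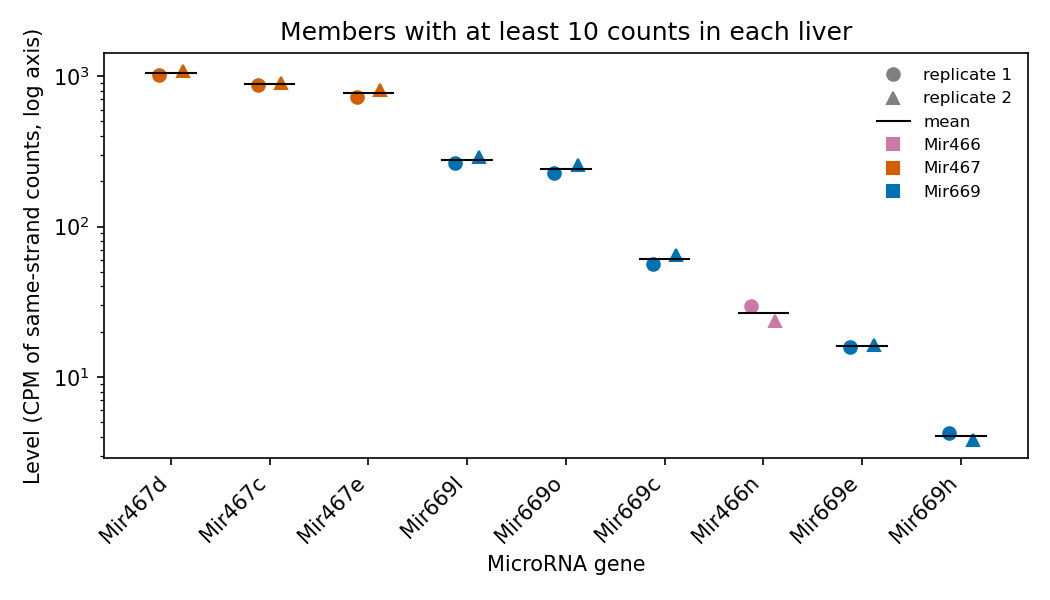
Level in CPM (log axis) of the 9 detected members, with a circle for replicate 1, a triangle for replicate 2 and a line for their mean. The members run from Mir467d at 1044 CPM to Mir669h at 4.04 CPM, and the 2 livers lie close together beside the distance between most neighbours.

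The order of the 9 detected members was the same in both livers. Within a library, the ratio of each member to the next lower one had a 95% exact interval above 1 for all 8 neighbouring pairs in both libraries. The pairs were formed by sorting these same levels, and the intervals were not adjusted for their number. They therefore describe the order and do not test it. Intervals reached closest to 1 for Mir466n over Mir669e in replicate 2, at 1.45-fold (1.002 to 2.12), and for Mir669l over Mir669o. The latter stood at 1.17-fold (1.04 to 1.31) in replicate 1 and 1.13-fold (1.02 to 1.24) in replicate 2. The smallest ratio was that of Mir467c over Mir467e in replicate 2, at 1.11-fold (1.05 to 1.17), against 1.19-fold (1.12 to 1.27) in replicate 1. Mir467d stood above Mir467c by 1.16-fold (1.10 to 1.24) and 1.19-fold (1.13 to 1.25). Counts were not divided by length, on the assumption that a read is a whole mature strand. Read lengths were not examined. Per 100 bases of hairpin the order was the same, from 1229 CPM per 100 bases for Mir467d to 3.23 for Mir669h.

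Counts of the members differed along the intron. Sfmbt2 spans chromosome 2 from 10370510 to 10595253 on the plus strand (GRCm38, mm10), and all 59 inside members lay in its intron from 10461473 to 10523944. This is intron 10 of an annotated transcript of 23 exons and intron 11 of another. None touched an exon of any annotated Sfmbt2 transcript. They filled 51617 bases from 96.2 to 147.8 kb after the start of the gene, with a median of 417 bases between the starts of neighbours. Inside this block 10 copies of Mir467a are strung out from 105.8 to 132.8 kb, with a median of 2462 bases from start to start and Mir466b copies between them.

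The stretch of Mir467a copies was all but empty of counts. Of its 23 members, 0 were detected, and it had 2 counts in each library, from Mir467b in replicate 1 and Mir467a-1 in replicate 2. The 15 members before it had 2721 and 3795 counts in replicates 1 and 2, with 3 detected (Mir669e, Mir669l and Mir467c). The 21 members after it had 4859 and 7019 counts, with 6 detected (Mir467e, Mir467d, Mir669c, Mir466n, Mir669o and Mir669h). The later stretch thus held 64.1% and 64.9% of the members' counts. Reads with several mapping places are outside these counts, and their part in the empty stretch was not tested. Hairpins of that stretch had less unshared sequence than those on either side, as given below. The intron carries 48 other annotated microRNA genes that have no family name. Only Gm22072, Gm25263, Gm22239, Gm22925 and Gm24806 had any count, and all 48 together had 1 count in replicate 1 and 5 in replicate 2. How much of their hairpin sequence is shared was not measured, so these low counts do not show that their microRNAs were absent.

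**Figure D2:**
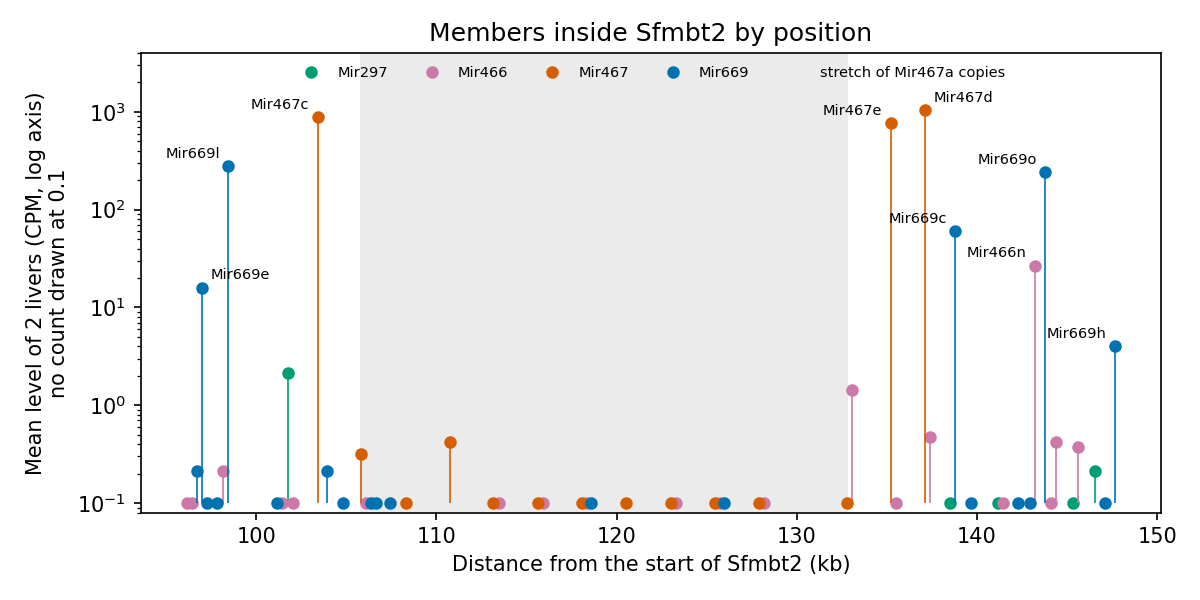
Mean level of the 2 livers in CPM (log axis) of the 59 members inside Sfmbt2 against distance from the start of Sfmbt2 in kb, with genes of no count drawn at 0.1 and the shaded stretch marking the Mir467a copies. The 9 detected members lie on both sides of the shaded stretch and none lies in it.

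How much of each hairpin is its own was then set beside its count, because reads with several mapping places, 34.0% and 33.1% of all reads, are outside the gene counts. For each member, every window of 20 bases was looked up in the 2202 annotated microRNA hairpins on both strands, leaving out genes that overlap the member. This search did not cover the rest of the genome. It counted windows over the whole hairpin, of which a read covers only a part. Mature strands of the members inside Sfmbt2 were not available, so how much of each strand is unshared is not known. The 69 members had 59 distinct hairpins. Mir467a-2, Mir467a-4, Mir467a-5, Mir467a-7, Mir467a-8 and Mir467a-9 had 1 hairpin between them, and Mir467a-3, Mir467a-6 and Mir467a-10 had another. In 20 members no window was unshared. Of these 20, 0 were detected and Mir467a-1 alone had a count, 2 in replicate 2. A level near 0 at such a gene does not show that its microRNA was absent, since a read of 20 bases from it cannot be assigned to that gene.

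The detected members had more sequence of their own. Their median share of unshared windows was 57.4%, from 37.9% in Mir467d to 95% in Mir669e, against 24.7% in the 50 other members inside Sfmbt2. Within the stretch of Mir467a copies the median share was 0%, against 39.2% in the members before it and 37.9% in those after it. Mir467d is the case to read with most care. It shares a run of 60 bases with Mir467a-9, more than the 48 bases between Mir467c and Mir467e, and only 25 of its 66 windows were unshared. Mir467d and Mir467e were identical at 92.0% of aligned positions, Mir467d and Mir467c at 83.5%. Among the Mir669 genes, Mir669l and Mir669o were identical at 81.8% of aligned positions and shared a run of 20 bases, but Mir669l shared 57 bases with Mir669d and Mir669o 38 bases with Mir669a-9. The counts of these members therefore leave out reads that fall in shared sequence, by an amount that was not measured. The library totals behind CPM leave out such reads too, and the effect on a CPM value was not measured.

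Across the 59 members inside Sfmbt2, the share of unshared windows and the mean level had a Spearman's rho of 0.52. Over all 69 members rho was lower, at 0.32. Both are given as a description, since the points share libraries and many are tied at 0. Of the 10 outside members, 8 had 50% or more of their windows unshared and 0 had a count. Inside Sfmbt2, 13 members reached that share, of which 8 were detected. The inside members that reached it without being detected were Mir466h, Mir466l, Mir669b, Mir466g and Mir669i. Of the outside genes, Mir669n had 100% of its windows unshared and Mir466f-4 had 90.2%. Whether their repeats also occur elsewhere in the genome was not tested.

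**Figure D3:**
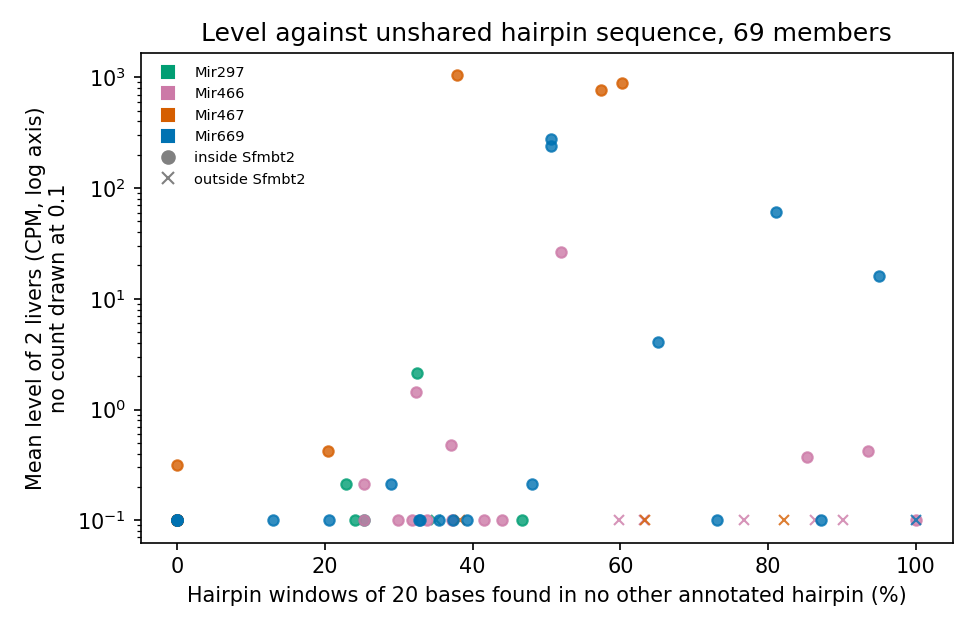
Mean level of the 2 livers in CPM (log axis, no count drawn at 0.1) against the percent of hairpin windows found in no other annotated hairpin, for all 69 members, with circles inside Sfmbt2 and crosses outside. Members at 0% lie at or near no count, and the crosses lie at no count whatever their share.

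Opposite-strand counts, which made up 9.60% and 10.2% of all microRNA gene counts, were 0 in both libraries at each of the 69 members. At least 1 opposite-strand count was found for 0 of the 9 detected members and for 40 of the 323 other detected genes (12.4%). The difference was not tested. The members' counts are thus the same with and without regard to strand.

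The last question was how far the 2 livers differed in these genes. The test was a two-sided exact binomial test of the counts of each of the 332 genes detected in both libraries, given the 2 totals, and p-values were adjusted by Benjamini-Hochberg over all 332. It compares these libraries, not conditions. Of the 9 members 1 passed at an adjusted p under 0.05, against a background of 139 of 332 genes (41.9%), with 23.5% higher in replicate 2 and 18.4% higher in replicate 1. Mir467e was higher in replicate 2 by 1.11-fold (95% exact interval 1.05 to 1.18, adjusted p = 0.0019 by the exact test). Mir467d had a ratio of 1.06 (1.01 to 1.12) and an adjusted p of 0.058 by the exact test. Mir669o had a ratio of 1.12 (1.01 to 1.26) and an adjusted p of 0.077 by the same exact test.

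The other 6 members gave adjusted p-values of 0.22 (Mir669l), 0.297 (Mir467c), 0.298 (Mir466n), 0.31 (Mir669c), 0.90 (Mir669h) and 0.96 (Mir669e) by the exact test. The ratio of replicate 2 to replicate 1 was above 1 for 7 of the 9, and for 190 of all 332 tested genes (57.2%). Among the members, Mir466n at 0.794 (0.565 to 1.12) and Mir669h at 0.902 (0.357 to 2.33) were below 1. On the log2 scale, with 0.5 added to each count, the ratio had a median of 0.09 over the 9 members and 0.03 over all 332 genes, and the largest size was a log2 ratio of -0.33, for Mir466n. Over all 332 genes the log2 ratios ran from -3.88 to 1.14, but a range widens with the number of genes. The median size of the log2 ratio, sign left out, was 0.155 over the 9 members and 0.163 over all 332 genes. The sum of all members was 1.07-fold higher in replicate 2 (1.04 to 1.10).

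The make-up of the cluster was also close in the 2 livers. Mir467d took 31.5% of the members' counts in replicate 1 and 31.2% in replicate 2, Mir467c 27.0% and 26.2%, and Mir467e 22.7% and 23.6%. Mir669l took 8.26% and 8.36%, and Mir669o 7.07% and 7.41%. For comparison, the 7 measured genes of the Mir290 to Mir295 cluster, another cluster of the early embryo and placenta, summed to 99.4 and 135.3 CPM, a ratio of 1.36 (1.16 to 1.60). Its highest genes were Mir293, with 34.8 and 50.4 CPM, and Mir294, with 35.3 and 39.9 CPM, each below Mir669c in both livers. The intervals of the 2 sums' ratios, 1.04 to 1.10 and 1.16 to 1.60, do not overlap, but the difference between them was not tested.

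**Figure D4:**
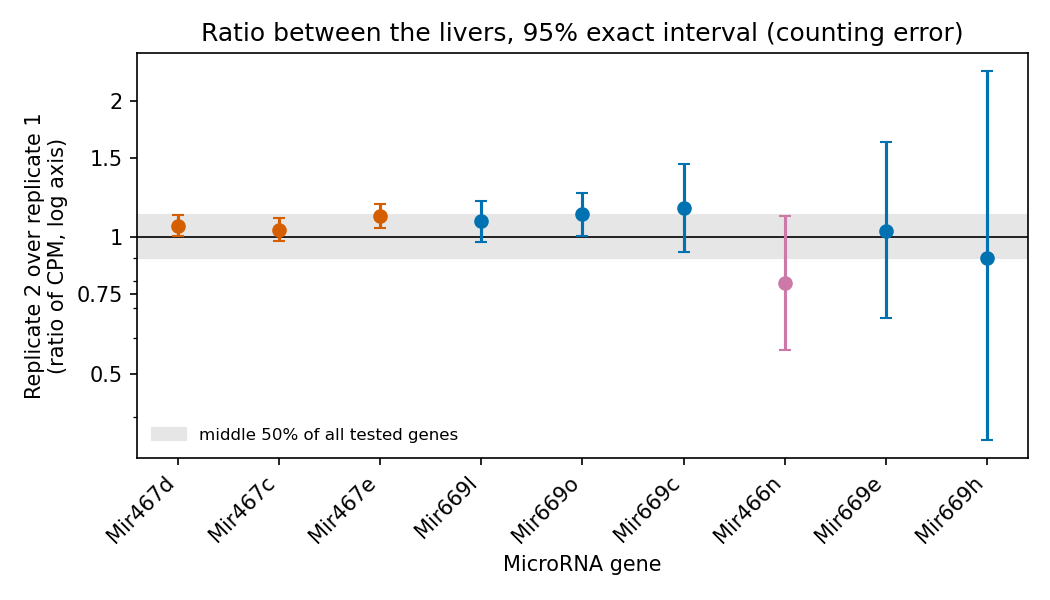
Ratio of replicate 2 to replicate 1 (CPM, log axis) for the 9 detected members with 95% exact intervals for counting error, and a grey band for the middle 50% of the 332 tested genes, from 0.902 to 1.12. Only Mir467e passed the adjusted test, and the intervals widen toward Mir669h, which has the fewest counts.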

How the data were processed

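The authors deposited raw counts per microRNA gene (regardless of strand, same strand, opposite strand), not normalized, 1 table per library. The assembly is mm10 and the annotation M4, per notes deposited with the files; aligner, counter and version were not given in the sources used here. Rows naming no gene were left out of totals: multi-mapping reads (34.0% and 33.1%), unmapped (18.6% and 17.7%) and reads in no gene (10.6% and 10.4%).

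Symbols and positions came from GENCODE M21 (1894 of 1973 IDs matched). Same-strand counts were scaled to CPM. Log2 ratios add 0.5 to each count and so understate low genes. Exact tests used scipy 1.17.1, and scaling alternatives edgeR 4.0.16 and DESeq2 1.42.0. Hairpins for the search were GENCODE M21 transcripts. The exact test was checked on simulated data.

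The members, lists and tests were chosen with earlier results of these data known. Named genes were all members with 10 counts in each library, the highest of each family, and other microRNA genes of the intron with a count; no member outside Sfmbt2 and none on the opposite strand had a count to name. All other members named in the text were chosen after their values were seen.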

Additional observations from a re-analysis of the deposited data

How the results depend on the processing

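The sum of all members moved from 3337 to 3005 CPM with counts regardless of strand, to 3725 CPM with Mir122, the most abundant gene, left out of the totals, and to 2292 CPM without Mir467d, which was chosen after the data were seen. Mir467 moved from 2705 to 2436, 3019 and 1660 CPM in the same way, and Mir669 from 600.2 to 540.5 and 670.0 CPM by the first and second of these. Counts regardless of strand lower CPM because the totals grow while the members' counts do not. TMM and DESeq2 scaling kept each family's sum within 1 SD of its main value, and so, by construction, did either replicate alone. At a minimum of 100 counts per library, 2 of 6 members differed in place of 1 of 9, because Mir467d passed (adjusted p = 0.043 by the exact test). At that minimum 130 of all 215 tested genes differed, against 139 of 332 in the main test. Mir467e passed under each alternative that tested it, with adjusted p from 0.0014 to 0.011 by the exact test. Of the 69 members, 12 were detected at a minimum of 1 count and 6 at 100. Over all 1973 genes the numbers were 542 and 215. Taking the two-sided p as 2 times the smaller tail, also chosen after the data were seen, called 136 of 332 genes and the same member. No difference between the livers could be computed without a replicate, since 1 library remains.

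Windows of 18 and 22 bases, also chosen after the data were seen, gave the detected members a median unshared share of 53.8% and 59.1%, against 57.4% with 20. Depth limits the lowest members: Mir669h rests on 10 and 12 counts.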
